A study of Mus musculus with 11 samples.

Results

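PU.1 occupancy was examined at Rac2 and 7 further genes of the hematopoietic actin machinery, namely Rac1, Vav1, Dock2, Arhgdib, Was, Coro1a and Arpc4, which are 8 of 22359 protein-coding genes in the annotation of the mouse mm9 genome. The genes were given as a list, and each was followed across its gene body with 10 kb on each side, in windows of 500 bp, 1529 windows in all. Chromatin immunoprecipitation with sequencing (ChIP-Seq) had been done with an antibody against PU.1 (T-21) in MEL cells and in ES-EP. MEL cells are murine erythroleukemia cells, here 1 clone stably transfected with Gata-1 fused to the estrogen receptor (ER), and ES-EP are erythroid progenitors derived from embryonic stem cells and kept proliferating with Epogen, hIGF-1, dexamethasone and SCF. The labels name no further agent for either group. Each cell type had 2 chromatin preparations, called A and B, with 2 libraries each, and input chromatin was sequenced as 1 MEL library and 2 ES-EP libraries.

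Rac GTPases are molecular switches that are active when bound to GTP and that direct the assembly of branched actin below the cell membrane. Exchange factors such as Vav1 and Dock2 load them with GTP, and Arhgdib, a GDP dissociation inhibitor, holds them inactive in the cytosol. The Wiskott-Aldrich syndrome protein Was activates the Arp2/3 complex, which nucleates actin branches and of which Arpc4 is a subunit. Coro1a, a coronin, binds actin filaments and the Arp2/3 complex. Rac2, Vav1, Dock2, Arhgdib, Was and Coro1a are known mainly from blood cells, in which they serve migration and antigen receptor signalling, whereas Rac1 and Arpc4 are found in nearly all cells. PU.1 is an Ets family factor that is best known from myeloid and B cells and that binds purine-rich DNA around a GGAA core, the PU-box.

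The 11 libraries held 2054667 to 5051235 reads on chromosomes 1 to 19, X and Y. None of the 11 libraries measured RNA, so the identity of the cells was not checked here against expressed markers. For reference, windows from 20 kb upstream of Sfpi1, which encodes PU.1 itself, to its end were examined. The windows given were picked for their reads and tied to no known PU.1 site, so they are no test of the immunoprecipitation. The highest lay at -11796 bp from the outermost annotated start site. There MEL gave 85 reads (A) and 303 reads (B) against 5 in the input, and ES-EP gave 366 and 293 against 18. Whether that window belongs to Sfpi1 or to a neighbouring gene was not examined. The window at 704 bp gave 23 and 96 reads against 4 in MEL, and 33 and 38 against 3 in ES-EP. Windows at 32704 and 33204 bp were called in ES-EP only. The preparations differed in yield at the genes described here. Of the 20 sites found at these genes, 15 had a higher RPM (reads per 1000000 reads of the library) in MEL preparation B than in A, and all 20 had a higher RPM in ES-EP preparation A than in B, 2 of them by less than 0.01 RPM.

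A window was called when its ChIP reads, summed over both preparations with repeated reads removed, exceeded the depth-scaled local input by a one-sided Poisson test (adjusted p below 0.05 over all windows of the genome), and when each preparation alone had an unadjusted p below 0.05. This test compares reads and not replicate cultures. The read counts, RPM values and ratios given for sites and intervals keep repeated reads, so they are not the counts tested. By this rule 17 windows of the 8 genes were called in MEL (1.11% of their windows, beside 0.632% of all windows within 10 kb of protein-coding genes) and 21 in ES-EP (1.37%, beside 0.423%), and 14 windows were called in both. The windows of all genes called in both were not counted, so this overlap is not read as particular to the 8 genes. Within 1 kb of the start site, 6 of the 8 genes had a called window in MEL, beside 28.1% of all protein-coding genes, and 7 of 8 in ES-EP, beside 16.3%. The exceptions were Coro1a in both cell types and Was in MEL. The 8 genes were chosen with earlier results of these data known, so the shares called are not read as particular to them. Over the whole intervals, which are longer for long genes and so hold a call more often, 7 of 8 genes had a call in MEL (all genes, 51.3%) and all 8 in ES-EP (all genes, 39.6%). Calls in ES-EP rested on preparation A more than on B, with 11 windows called without A and 19 without B.

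Joining neighbouring called windows gave 20 sites, of which 12 were called in both cell types, 3 in MEL only and 5 in ES-EP only. This split was not made for all genes, so it is not read as particular to these. Of these sites, 7 had their summit, the point of densest reads, within 1 kb of the outermost start site of their gene, and 10 lay within 1 kb of a protein-coding start site of any gene. Sequences around the summits of 8 sites are shown here because they mark the 2 kinds of site at these genes, those with a classical PU-box word and those without. All of them but that of Rac2 hold the word, so they do not show how common it was. They are written 5′ to 3′ on the plus strand of mm9, with GAGGAA and its reverse complement TTCCTC in capitals, and bases of annotated untranslated exons were left out beyond 30 bases.
Vav1 start site, chr17:57418458-57418522: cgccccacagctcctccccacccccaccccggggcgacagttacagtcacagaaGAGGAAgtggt
Vav1 upstream window, chr17:57415703-57415903: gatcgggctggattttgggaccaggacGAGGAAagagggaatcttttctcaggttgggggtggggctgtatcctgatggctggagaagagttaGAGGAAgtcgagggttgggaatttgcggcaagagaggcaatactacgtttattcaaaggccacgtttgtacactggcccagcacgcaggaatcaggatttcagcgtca
Dock2 start site, chr11:34597395-34597536: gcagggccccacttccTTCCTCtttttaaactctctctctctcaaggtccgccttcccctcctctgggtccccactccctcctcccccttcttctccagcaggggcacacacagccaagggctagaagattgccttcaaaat
Was first exon, chrX:7667595-7667624: gcagggtaagaaGAGGAActtccgcagtga
Arhgdib intron, chr6:136886905-136887105: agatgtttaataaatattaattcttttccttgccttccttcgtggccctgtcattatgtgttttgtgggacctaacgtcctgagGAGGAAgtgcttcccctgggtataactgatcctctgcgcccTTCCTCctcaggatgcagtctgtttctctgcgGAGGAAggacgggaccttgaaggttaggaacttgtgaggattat
Coro1a intron, chr7:133845906-133846106: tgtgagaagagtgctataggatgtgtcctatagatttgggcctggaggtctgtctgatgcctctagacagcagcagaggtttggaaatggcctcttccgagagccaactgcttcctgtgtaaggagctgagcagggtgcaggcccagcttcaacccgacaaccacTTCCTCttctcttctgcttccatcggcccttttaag
Bola2 start site downstream of Coro1a, chr7:133839445-133839474: gtgagcggcgtgGAGGAAgtggctgcagtg
Rac2 intron, chr15:78402146-78402346: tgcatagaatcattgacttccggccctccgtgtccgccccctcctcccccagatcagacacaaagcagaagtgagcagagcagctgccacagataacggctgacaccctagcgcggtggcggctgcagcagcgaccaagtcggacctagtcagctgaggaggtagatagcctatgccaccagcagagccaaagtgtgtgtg

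The start site of Vav1 carried the longer word GAGGAAGT on the plus strand, and the GAGGAA within it was centred 9 bp before the outermost start site. In Dock2, whose gene is on the minus strand, GAGGAA lay 19 bp before the start site, and in Was it lay 15 bp inside the first exon and 7 bp from the summit. The intronic Arhgdib site held 3 copies within 100 bp of its summit, the nearest at 14 bp. No copy was found within 100 bp of the summit at Rac2, at the Rac1 start site, at the Arhgdib start site or at Arpc4. The same held 28.1 kb downstream of the Rac1 start site, 56.4 kb downstream of that of Vav1, and 170 and 397 kb downstream of that of Dock2. The Rac2 sequence does hold ttcc, the reverse complement of the GGAA core. Over the whole 500 bp window, 12 of the 20 sites held GAGGAA on either strand, beside 38.4% of all windows near protein-coding genes, and 7 held GAGGAAGT, beside 3.0%. All windows called near protein-coding genes held GAGGAA in 53.4% of cases in MEL and 62.0% in ES-EP, and GAGGAAGT, which contains the shorter word, in 19.1% and 25.0%. These matches are a description of the sequence and show no binding.

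**Figure D1:**
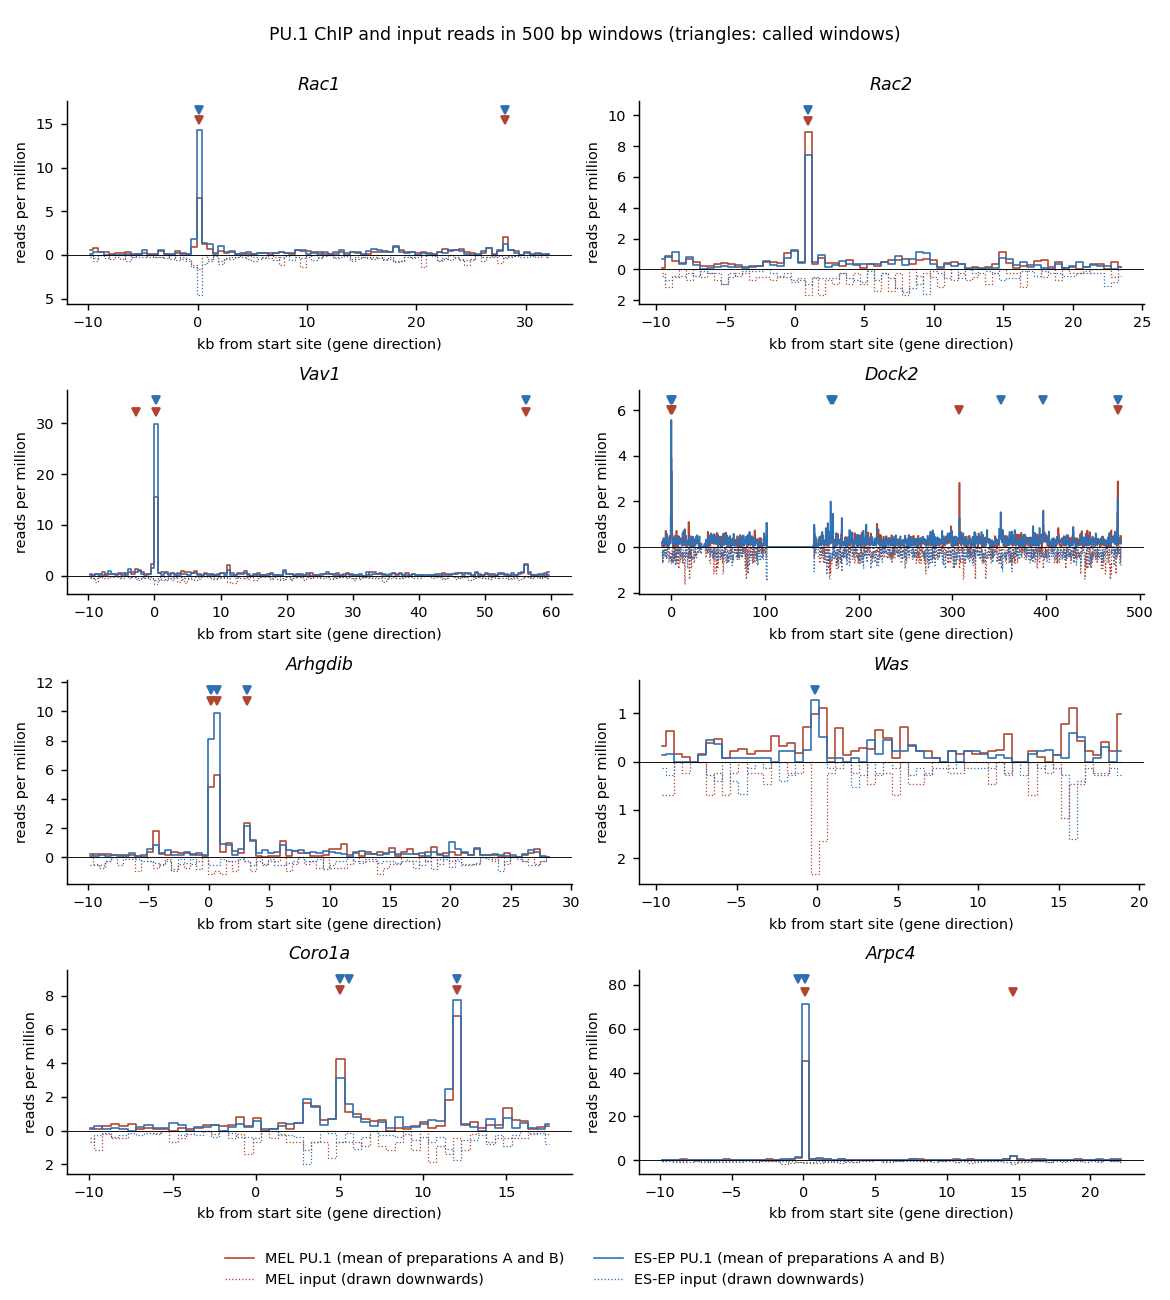
Reads per 1000000 reads of the library (RPM) in 500 bp windows along each gene with 10 kb on each side, against the distance in kb from the start site in the direction of the gene. Solid lines are the mean of the 2 PU.1 preparations, dotted lines drawn downwards are input, and triangles mark called windows. One sharp peak near the start site stands out at Arpc4, Vav1, Rac1, Rac2 and Arhgdib, Coro1a peaks 5.29 and 11.8 kb downstream, and ChIP in the Was panel does not exceed 1.29 RPM in either cell type.

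Rac2, the Rac GTPase of blood cells, lies at chr15:78389599-78403213 on the minus strand. It had a single site, the window chr15:78402001-78402500, whose summit was in an intron 967 bp downstream of the start site. In MEL this window held 7 and 14 reads in the libraries of preparation A, 34 and 65 in those of preparation B, and 7 in the input. In ES-EP it held 25 and 33 reads in preparation A, 12 and 28 in preparation B, and 7 in the input libraries together. In RPM, MEL B stood at 14.2 and MEL A at 3.69 against 1.64 in the input. ES-EP A stood at 9.23 and ES-EP B at 5.64 against 0.935. The calling rule asks each preparation to exceed input, so these values are no further support for the site. The ratio of ChIP to input was 5.78 in MEL (95% exact interval for counting error 2.72 to 14.7) and 7.84 in ES-EP (3.66 to 20). The log2 difference between MEL and ES-EP was -0.01 ± 0.68 (SE, limma voom, adjusted p = 0.996), and the levels of the cell types overlapped. No other window of the Rac2 interval was called, and over the whole interval ChIP was 1.05 times input in MEL (0.871 to 1.28) and 1.07 times in ES-EP (0.908 to 1.26).

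Within 1 kb of the Rac2 start site, the log2 ratio of ChIP to input (RPM plus 0.5) was 0.78 (A) and 1.81 (B) in MEL, while in ES-EP it was 1.90 (A) and 0.93 (B). The 5 protein-coding genes whose 4 ratios were nearest to these, by Euclidean distance, were Kcnq5 at 0.139, Rsl24d1 at 0.161, Lrrc8c at 0.163, Cib1 at 0.197 and Brd9 at 0.214. None of the 5 is among the actin regulators considered here. The likeness is in these 4 values, from which the genes were chosen. The values of Rac2 come from chr15:78402213-78404213, an interval that cuts through its only called window, so part of that peak is left out.

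Rac1, the Rac GTPase of nearly all cells, lies at chr5:144266346-144288904 on the minus strand, and its strongest window covered the start site, with the summit 44 bp upstream. It held 22 and 64 reads in MEL A and B against 7 in the input, and 126 and 61 reads in ES-EP A and B against 34 in the input. The ES-EP input was itself high there, at 4.54 RPM, while it was 1.64 in MEL. ChIP was 4.14 times input in MEL (1.93 to 10.6) and 3.08 times in ES-EP (2.13 to 4.58). A weaker second site lay 28.1 kb downstream of the start site, inside the neighbouring gene Daglb, with 15 and 11 reads in MEL against 1 and 8 and 9 in ES-EP against 3. The window of the start site had a GC content of 76.8% and held no GAGGAA.

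Vav1, a Rac exchange factor downstream of antigen receptors, lies at chr17:57418523-57468659 on the plus strand. Its start site had the second highest level of the 20 sites. The libraries gave 19 and 30 reads in MEL A, 51 and 106 in MEL B and 4 in the input, and 68 and 190 in ES-EP A, 39 and 94 in ES-EP B and 13 in the input. All 8 ChIP libraries exceeded their pooled input at this window, which was chosen because both preparations of each cell type exceeded input. ChIP was 17.4 times input in MEL (6.68 to 64.4) and 16.8 times in ES-EP (9.73 to 31.9), with the summit 35 bp into the gene and 44 bp from the PU-box word shown above. The MEL and ES-EP preparations overlapped, MEL at 8.60 and 22.5 RPM and ES-EP at 41.1 and 18.7 (log2 difference -1.0 ± 0.73 SE, limma voom, adjusted p = 0.790). A site 56.4 kb downstream of the start site, past the end of the gene, held 16 and 12 reads in MEL against none in the input, at least 3.15-fold more than the floor of 3 input reads allows, and 15 and 14 in ES-EP against 2. The window 2.72 kb upstream, with 3 copies of GAGGAA, was called in MEL only, where it held 6 and 10 reads against 1, while in ES-EP it held 7 and 2 against 5.

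Dock2, the exchange factor that activates Rac in lymphocytes, spans 471 kb (chr11:34126815-34597394, minus strand), and 103 windows of the 8 genes, which include a stretch of Dock2 without reads, hold bases unknown in the genome. The start site had 15 and 36 reads in MEL against 3 and 46 and 27 in ES-EP against 5, ratios of 5.73 (1.85 to 28.7) and 8.17 (3.35 to 25.9). Beyond the 3′ end, 477 kb from the start site, a window without a single input read in either cell type held 14 and 23 reads in MEL, at least 4.16-fold above the floor, and 18 and 10 in ES-EP, at least 5.22-fold. The remaining 5 sites were in introns and weak. One, 308 kb from the start site and also inside Fam196b, was called in MEL only, with 10 and 27 reads against 4, while ES-EP had 8 and 9 against 4. The highest of the 4 called in ES-EP only, 170 kb from the start site, had 18 and 8 reads against 2, while MEL had 2 and 7 against 5. Over the whole interval ChIP was no higher than input, at 0.942 times (0.878 to 1.01) in MEL and 1.01 times (0.957 to 1.07) in ES-EP.

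Arhgdib lies at chr6:136872044-136890420 on the minus strand and had called windows in both cell types at 2 sites. At the start site, 424 bp downstream of the outermost start and 28 bp from another annotated start of the gene, the libraries gave 13 and 22 reads in MEL A, 19 and 17 in MEL B and 4 in the input. The ES-EP libraries gave 28 and 46 in A, 17 and 40 in B and 4 in the input. In RPM, ES-EP lay higher in both preparations (11.8 and 8.03) than MEL in either (6.14 and 5.15) in this window. In the adjoining called window of the same site, with 33 and 27 reads in MEL and 66 and 40 in ES-EP, MEL A lay above ES-EP B per library read, so the groups overlapped there. The difference in the first window was -0.78 ± 0.68 (log2, SE) with an adjusted p of 0.790 by limma voom, and with 2 preparations a cell type an exact two-sided permutation test cannot give a p below 0.333. The intronic site 3.42 kb downstream had 11 and 19 reads in MEL against 1 and 17 and 11 in ES-EP against 2.

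At Was, which activates the Arp2/3 complex (chrX:7658579-7667624, minus strand), few reads were found. The window over the start site held 1 and 3 reads in MEL A, 4 and 5 in MEL B and 10 in the MEL input, 0.438 times input (0.178 to 1.12). In ES-EP it held 4 and 6 reads in A, 1 and 6 in B and none in the input, at least 3.17-fold above the floor of 3 reads, and it was called in ES-EP only. In RPM the ChIP levels themselves overlapped, at 0.702 and 1.29 in MEL and 1.59 and 0.986 in ES-EP, and it was the inputs that stood apart, at 2.34 in MEL and 0 in ES-EP. Within 1 kb of the start site the inputs held 18 reads in MEL and 1 in ES-EP.

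Coro1a, a coronin of leukocytes (chr7:133843287-133851301, minus strand), had no called window within 1 kb of its outermost start site, where 8 and 11 reads in MEL stood against 9 in the input and 9 and 6 in ES-EP against 10. Its own site was in an intron 5.29 kb downstream, which is 681 bp downstream of another annotated protein-coding start site of Coro1a. There 24 and 30 reads in MEL stood against 3, a ratio of 6.07 (1.97 to 30.4), and 27 and 14 in ES-EP against 5, a ratio of 4.59 (1.81 to 14.9). A stronger window 11.8 kb downstream lay past the end of the gene, 5 bp from the start site of Bola2 and 184 bp from that of Slx1b, and was covered only because the interval extends 10 kb beyond the gene. It held 21 and 69 reads in MEL against 2 and 51 and 52 in ES-EP against 13. The site inside Coro1a and the one at Bola2 both held GAGGAAGT.

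Arpc4, a subunit of the Arp2/3 complex (chr6:113328107-113340442, plus strand), had the highest level of the 20 sites. At the start site, the libraries gave 53 and 126 reads in MEL A, 129 and 284 in MEL B and 4 in the input. In ES-EP they gave 167 and 405 reads in A, 85 and 276 in B and 6 in the input. In this window, chosen because it was called, ChIP was 49.9 times the input in MEL (19.4 to 184) and 87.0 times in ES-EP (39.8 to 238). In RPM the cell types overlapped, MEL at 31.4 and 59.1 and ES-EP at 91.0 and 50.9, and the log2 difference was -0.66 ± 0.75 (SE, limma voom, adjusted p = 0.791). The summit lay 58 bp into Arpc4 and at -288 bp from the start site of Tada3, which is transcribed in the other direction. A window 14.7 kb downstream, 296 bp into Ttll3, was called in MEL only, with 11 and 18 reads against 2, while ES-EP had 17 and 10 against 13.

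**Figure D2:**
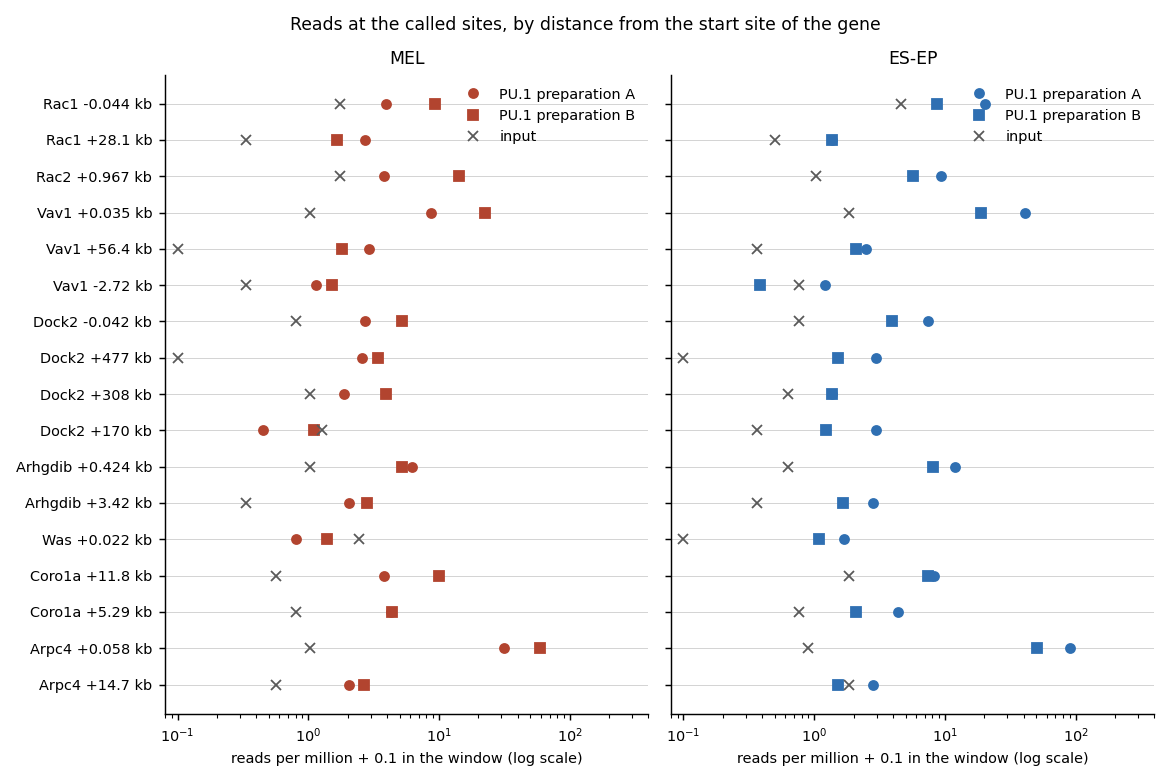
RPM plus 0.1, on a log scale, in the strongest window of the 17 sites described by name, in each PU.1 preparation (circle A, square B) and in the input (cross), for MEL and ES-EP. Arpc4 near its start site lies highest in both panels, at 31.4 and 59.1 RPM in MEL and 91.0 and 50.9 in ES-EP, and at the Was start site the MEL input (2.34) lies above both preparations.

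The calls against input were repeated with limma voom, in which preparations and input libraries are the samples. Windows and promoters entered with at least 20 ChIP reads, whatever their input, which favours ChIP over input. A pass is therefore no independent support for the calls above. Of the 66 windows of these genes with at least 20 ChIP reads, 5 were higher than input in MEL, beside 6.58% of all windows tested, and 14 in ES-EP, beside 10.2%, and all 5 also passed in ES-EP. The 5 were the start sites of Vav1 and Arpc4, the window downstream of Vav1, the one beyond the 3′ end of Dock2 and the one at Bola2. How many of all windows passed in both cell types was not counted. Within 1 kb of the start site, only Arpc4 passed in MEL (log2 4.06, adjusted p = 5.80e-05 by limma voom, 1.88% of all promoters called), and 5 of 8 genes passed in ES-EP (2.65% called). These were Arpc4 (adjusted p = 5.12e-10), Vav1 (9.07e-05), Arhgdib (2.69e-04), Dock2 (0.0285) and Was (0.0289), the last against a single input read. Within 1 kb of their start sites, Rac1, Rac2 and Coro1a did not pass in either cell type, with limma voom adjusted p of 0.137 or higher. For Rac2 this interval cuts through its only called window, near the summit, so the promoter test covered part of that peak. The single Rac2 window, 967 bp downstream of the start site, was among the 14 that passed in ES-EP (log2 2.91, adjusted p = 0.00323 by limma voom), and in MEL it did not pass (log2 2.08, adjusted p = 0.0926). There was 1 MEL input library, and its spread was taken from the other groups. The 2 ES-EP input libraries entered as separate samples, although the labels do not say whether they come from separate preparations. The counts that passed in MEL and in ES-EP are therefore not on equal terms.

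The design also compares MEL with ES-EP, 1 leukemic and 1 normal erythroid cell type. They also differ in origin, in the Gata-1 fusion and in medium, from which leukemic state cannot be told apart. Between MEL and ES-EP, limma voom over the 4 preparations called 0 of the 66 windows, beside 0.241% of all windows, and 1 of the 66 had an unadjusted p below 0.05, the second Dock2 window at the start site. At the promoters, 0 of 8 genes were called, beside 0.226% of all promoters, and 0 had an unadjusted p below 0.05. The promoter interval of Rac2 cuts through its only called window. The promoters of Rac1 (log2 -1.11 ± 0.73 SE), Vav1 (-0.87 ± 0.84), Arhgdib (-0.77 ± 0.76), Dock2 (-0.75 ± 0.66) and Arpc4 (-0.68 ± 0.97) had lower values in MEL, and those of Rac2 (0.29 ± 0.65), Coro1a (0.43 ± 0.55) and Was (0.46 ± 0.51) higher, each within 2 SE of 0. No direction is drawn for any of the 8. For 4 genes the value changed sign net of input (the log2 ratio of ChIP to input in MEL less that in ES-EP). Net of input it was 0.07 (Rac1), -0.24 (Rac2), -0.17 (Coro1a) and -3.67 (Was, adjusted p = 0.660 by limma voom). For Rac2 (-0.01) and Was (-0.65) it also changed sign when scaled by the input of the surrounding 1 Mb. The median of the 8 was -0.71 and that of all promoters tested was -0.26, and with median-ratio scaling these were -0.41 and -0.01. The 8 sites called in 1 cell type only had log2 differences of -1.52 to 1.21 and adjusted p of 0.790 to 0.917, so none of them was shown to differ between the cell types.

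Over the gene with 10 kb on each side, only Was was called between the cell types, beside 8.80% of all gene intervals. Its RPKM values, which scale reads to library depth and to the length of the interval, were 0.622 and 0.670 in MEL and 0.318 and 0.383 in ES-EP, which did not overlap, a log2 difference of 0.88 ± 0.20 (SE, limma voom, adjusted p = 0.0208). Input moved in the same direction, at 0.587 in MEL and 0.354 in ES-EP over the interval, and the 1 Mb around Was held 2255 input reads in MEL and 1832 in ES-EP, 2.15 times as many in MEL at equal depth. Over the whole X chromosome the MEL input was 1.52 times that of ES-EP. Scaled by the input of the 1 Mb around, the difference at Was was -0.23 (adjusted p = 0.634, limma voom), and net of the input libraries it was 0.15 (adjusted p = 0.986). Without MEL preparation B the adjusted p by limma voom was 0.0547, and without ES-EP preparation A it was 0.117. At the other 7 genes the input of the surrounding 1 Mb was 0.993 to 1.24 times as high in MEL, and the ChIP differences were -0.42 to 0.08.

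**Figure D3:**
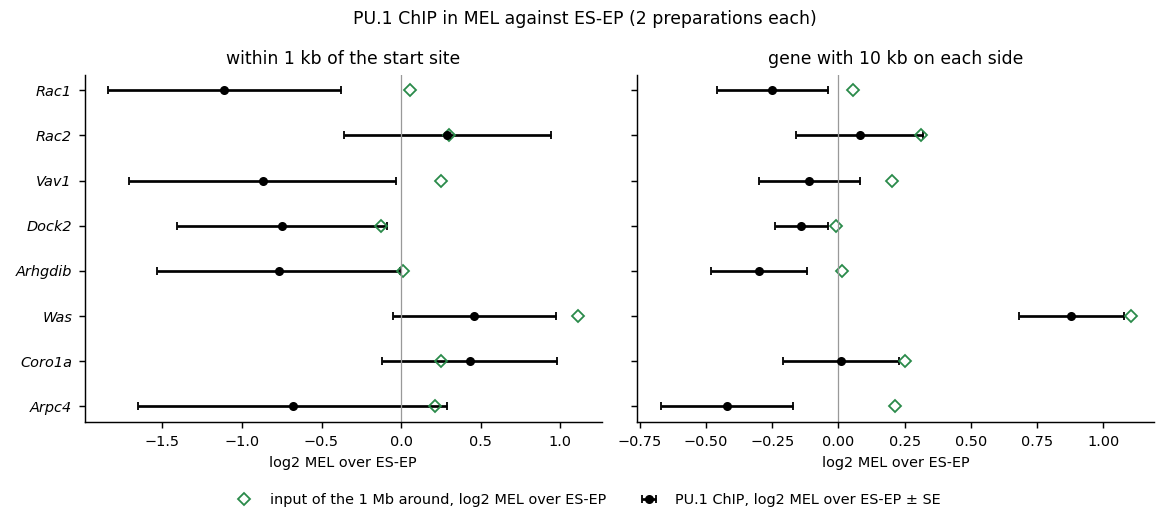
Log2 difference between MEL and ES-EP in PU.1 ChIP reads (black points with SE bars, 2 preparations each) and in the input of the 1 Mb around (green diamonds), for the 8 genes within 1 kb of the start site (left) and over the gene with 10 kb on each side (right). At Was the interval difference of 0.88 lies beside an input ratio of 2.15, and all other bars lie within 2 SE of 0.

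To set these genes beside their pathway, 68 other genes of Rac signalling and actin assembly were listed and examined within 1 kb of the start site. The list was chosen with earlier results of these data known and was not matched to all genes for expression. A higher share in it is therefore not read as a result about the pathway. A called window was found at 45 of 68 in MEL (66.2%), beside 28.1% of all protein-coding genes, and at 34 of 68 in ES-EP (50%), beside 16.3%. In both cell types it was found at 32 of the 68, a share that was not counted over all genes. By role, the other subunits of the Arp2/3 complex were called most often, 7 of 8 in MEL and 8 of 8 in ES-EP, with Arpc1a missing in MEL. Exchange factors and their partners had 11 of 15 in MEL and 6 of 15 in ES-EP, GDP dissociation inhibitors and GTPase-activating proteins 5 and 4 of 7, the WASP family and WAVE complex 7 and 6 of 12, coronins 4 and 1 of 5, and effectors and other actin-binding proteins 8 and 6 of 14.

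Among listed genes with at least 4 input reads, the highest ratios of ChIP to input within 1 kb of the start site in MEL were those of Actr2, an actin-related subunit of the Arp2/3 complex, at 16.7 (10.0 to 30.0), Cdc42, a small GTPase, at 13.8 (6.26 to 38.0), and the actin-severing protein Cfl1 at 13.3 (6.03 to 36.7). In ES-EP they were those of Arpc2, a further Arp2/3 subunit, at 21.9 (14.6 to 34.4), Nckap1l, the WAVE complex subunit of blood cells, at 18 (9.37 to 39.8), and Actr2 at 12.1 (8.80 to 17.2). The ratio of Arpc4 over the same interval was 19 (10.6 to 38.3) in MEL and 30.1 (19 to 51.1) in ES-EP. Between MEL and ES-EP, limma voom called 0 of the 67 listed promoters tested, and 7 of the 67 had an unadjusted p below 0.05, beside 1476 of all 17682 promoters. Of the 68 listed gene intervals 6 were called, 5 of them higher in MEL, beside 8.80% of all gene intervals, of which 1292 of 1919 were higher in MEL, so the listed intervals were called at about the share of all genes. Scaled by the input of the surrounding 1 Mb, 132 gene intervals of all genes were called in place of 1919, and the part of that input in the listed intervals was not tested. The median log2 difference over the listed promoters was -0.43, beside -0.26 over all promoters tested, a median that moved to -0.01 with median-ratio scaling.

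**Figure D4:**
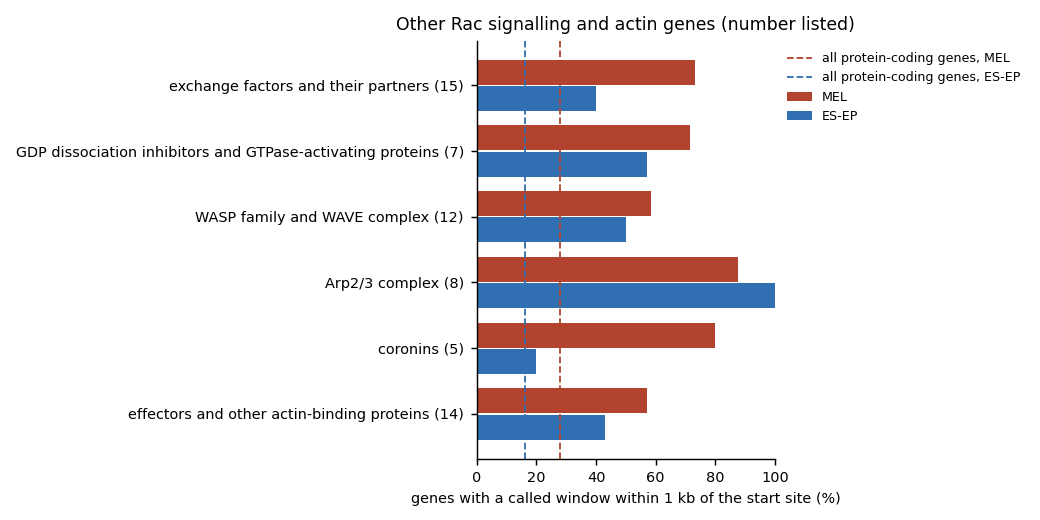
Share of the other Rac signalling and actin genes, by role, with a called window within 1 kb of the start site in MEL and ES-EP, in percent, with the number of genes listed. Dashed lines give all protein-coding genes, 28.1% in MEL and 16.3% in ES-EP, to which the list was not matched for expression. Among the bars, coronins in ES-EP stand at 1 of 5 genes (20%), near the line for all genes.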

How the data were processed

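PU.1 ChIP-Seq and input reads from MEL cells and ES-EP were analysed. The authors deposited 1 BED file per library with the start and end coordinates of uniquely mapped reads on mm9 (unit: positions, neither counts nor a normalized signal), and per the study's methods the reads came from an Illumina Analyzer GAII and were processed by the Illumina ELAND aligner. Reads on chromosomes 1 to 19, X and Y were moved from their 5′ end by 70 bp in MEL and 65 bp in ES-EP and counted in 500 bp windows. Starts are counted from 1 (99.95% or more of the reads checked matched the genome). The 8 genes, the pathway list and the tests were chosen with earlier results of these data known.

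Windows were called by the Poisson test described above, for which repeated reads were those sharing a position and strand within a library, and whose expectation was the largest of 4 input densities, those of the window, of 5 kb, of 10 kb and of the genome. MEL and ES-EP were compared with limma 3.58.1 (voom, total reads as library size, 2 preparations each, all reads, at least 20 ChIP reads, Benjamini-Hochberg adjustment over all windows, promoters or gene intervals). Intervals of ratios are exact binomial and, like the floor of 3 reads, cover counting error only, since reads are not independent molecules. The preparations are called independent, and the limma p-values measure the spread between them, while those of the Poisson test do not. Genes were taken from the GENCODE annotation of mm9. Promoter intervals reached 1 kb to each side of the outermost protein-coding start site. The named sites were those of called windows, neighbours joined, at most the 4 highest per gene, and all 8 genes were named. The pathway genes named with values were the 3 with the highest ratio per cell type. All 68 listed genes were found in the annotation, and the count of 1 role among them is not reported here. On simulated reads, the calling found 73 of 100 MEL windows raised 10-fold and 99 of 100 raised 20-fold among 5309802 windows, and limma found 22 of 100 MEL windows changed 4-fold and 86 of 100 changed 8-fold among 65012. The limma simulation used a dispersion of 0.1, and both simulations gave preparations A and B equal means at equal depth. The real preparations differed in yield, so these shares do not give the power in these data. Alternatives were other scalings, read minimums, tests, grids and intervals, single libraries, repeats, inputs, and leaving out each preparation. Python 3.11.15, NumPy 2.4.6, pandas 2.3.3, SciPy 1.17.1 and R 4.3.3 were used.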

Additional observations from a re-analysis of the deposited data

Results flagged for a closer look

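Of 66 sets of 4 libraries tested with Dixon's criterion (CPM at the named sites, promoters and gene intervals), 2 had a library standing apart. The chance share of about 1 in 20 holds for independent values. These libraries come in pairs from 2 preparations, so it does not apply here. At the window 2.72 kb upstream of Vav1 in MEL, library A1 was at 0.487 CPM, with the other 3 at 1.37, 1.46 and 1.41. Over the Rac2 interval in ES-EP, library B1 was at 28.4, with the other 3 at 33.2, 32.8 and 32.4.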

How the results depend on the processing

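The 17 MEL, 21 ES-EP and 14 shared windows of the 8 genes became 6, 9 and 6 with an exact binomial test against the input of the window alone, 5, 14 and 5 with limma, and 11 in MEL and 9 shared with the first libraries only. MEL had 11 with 2 kb on each side. Leaving out a preparation gave 15 to 16 in MEL, 11 to 19 in ES-EP and 10 to 13 shared, the lowest ES-EP count without A. All other alternatives were within 1.5 times.

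Between MEL and ES-EP the calls over all features, 157 windows, 40 promoters and 1919 gene intervals, depended on the model. Windows numbered 1369 with median-ratio scaling, 1743 on log2 CPM, 386 and 24 with at least 10 and 40 reads, 32 and 33 with first and second libraries, 40 net of input, and 0 to 1 without a preparation. Promoters numbered 625, 79, 26 (at least 10 reads), 2 and 3, 0 net of input, 96 within 2 kb, and 0 to 12 without a preparation. Gene intervals numbered 132 (61 higher in MEL, 71 in ES-EP, against 1292 and 627) when scaled by the input of 1 Mb, 9 net of input, and 1045 to 1792 without a preparation. The replicate block on the preparation letter left 10 windows, 30 promoters and 1923 gene intervals and changed no call at the 8 genes. The letters pair nothing in the labels, and the deviations of same-letter preparations correlated at 0.01 (windows), -0.22 (promoters) and -0.18 (gene intervals). A crossed replicate block (MEL A with ES-EP B), added after seeing the data, gave 1810 windows, 2261 promoters and 3589 gene intervals, and 2 windows, 5 promoters and 2 gene intervals of the 8 genes.

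Of the 8 genes, the windows and promoters called stayed 0 when each preparation was left out in turn, and the gene intervals called ranged from 0 to 2. Was lost its interval call with second libraries only (0.67, adjusted p = 0.135), without MEL B (0.83, adjusted p = 0.0547), without ES-EP A (0.75, adjusted p = 0.117) and net of input (0.15), and Arpc4 gained one without MEL B and without ES-EP B, all by limma. Other log2 differences changed sign, and of these only the Was interval had passed the threshold. Scaled by the input of 1 Mb, they were -0.23 (Was interval), -0.65 (Was promoter), -0.01 and -0.23 (Rac2 promoter and interval), -0.24 (Coro1a interval) and -0.04 (the window 14.7 kb downstream of Arpc4). Net of input they were 0.33 (Rac1 start site window), 0.07 (Rac1 promoter), 1.27 (Bola2 window), -0.17 and -0.47 (Coro1a promoter and interval), -0.24 and -0.08 (Rac2 promoter and interval) and -3.67 (Was promoter). With first libraries they were -0.91 (Arpc4, 14.7 kb), 0.02 (Bola2 window), 1.07 (Dock2, 352 kb), 0.06 (Was window) and -0.02 (Coro1a promoter). The Rac2 window, at -0.01, moved to 0.12 (median-ratio), 0.02 (log2 CPM), 0.10 (crossed block), 0.13 (second libraries) and 0.01 (repeats removed). Leaving out each preparation, the values that changed sign ranged from -0.27 to 0.64 (Arpc4, 14.7 kb), -0.24 to 0.84 (Rac2 promoter), -0.96 to 0.96 (Rac2 window), -0.76 to 0.03 (Was window), -0.34 to 0.12 (Vav1 interval), -1.05 to 0.35 (Bola2 window), -0.27 to 0.27 (Coro1a interval) and -0.27 to 0.40 (Rac2 interval). The cause was not tested. Several windows of either cell type rest on 0 to 7 input reads, which limits their ratios.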
